A study of Mus musculus with 16 samples.

Results

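Pax7, Myf5, Myod1, Myf6, Myh3, and Myh8 are the genes of muscle satellite cells, of the myogenic program, and of the developmental myosins. They were chosen by gene name from the mRNA table, and they make up 6 of its 23235 gene names. The expected counts of their 11 transcripts were summed per gene in each of 16 mice. The mice were male, 6 weeks old on purchase, and 4 of them formed each group. Their strain is C57BL/6 in the labels and C57BL/6J in the methods of the study. The control group was kept on a normal diet, and the HFD group received a high-fat diet with 60% fat for 8 weeks to bring about insulin resistance. The HFD + RSV group and the HFD + metformin group had the same high-fat diet and then 6 weeks of resveratrol, a plant polyphenol, or of metformin, a glucose-lowering drug. Both drugs were given to HFD mice only, so neither was measured on a normal diet. Which muscle was dissected is not given in the sources used here, nor whether the sequenced mice were among those injected with insulin before collection.

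Satellite cells are the stem cells of skeletal muscle, which lie quiet beside the fibres and express the paired-box factor Pax7. When they are activated they express the myogenic regulatory factors Myf5 and Myod1, divide, and fuse into fibres under Myog. Myf6 is the factor that dominates in mature fibres. Myh3 encodes the embryonic and Myh8 the neonatal myosin heavy chain, the motor proteins of fibres before and around birth, which return in regenerating fibres and persist in muscle spindles. In bulk tissue, fewer cells of a type and less RNA per cell cannot be told apart.

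Each mouse gave 1 library, with 17625909 to 29761026 mRNA counts, so the spread between replicates is a spread between mice. The counts went with the tissue label, since 9 mature fast fibre genes summed to 62300 to 124000 CPM (counts per 1000000 counts of the TMM-scaled library) in every mouse. The extraction text of the labels names retinas, but the 6 retina markers in the table summed to only 0.499 to 1.52 CPM. Control mouse 3 and HFD + metformin mouse 3 had the lowest shares of counts in the 10 most abundant genes, 26.8% and 28.4%, against 31.8% to 38.1% in the other mice. The titles of the HFD mice share a leading number that no other mouse carries. What it stands for cannot be told apart from the diet against control, or from the drug in either drug group against HFD.

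The 6 genes differed widely in level on the length-corrected FPKM scale. Myf6 was the highest, with a median of 39.1 FPKM over the 16 mice, followed by Myh8 at 16.8 FPKM and Myod1 at 7.67 FPKM. Myf5 at 0.611 FPKM, Pax7 at 0.539 FPKM, and Myh3 at 0.287 FPKM were low, and the ranges of these 3 genes overlapped between mice. The counts behind these levels were 840 to 1698 per mouse for Myf6 and 1315 to 4474 for Myh8, but only 26 to 103 for Pax7, 14 to 49 for Myf5, and 10 to 316 for Myh3. Counting error is therefore largest for Myf5, Pax7, and Myh3. Between the lowest and the highest mouse, Myf6 differed 2.04-fold, Myh8 2.48-fold, Myf5 2.65-fold, Myod1 3.11-fold, Pax7 4.21-fold, and Myh3 45.7-fold in CPM.

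**Figure D1:**
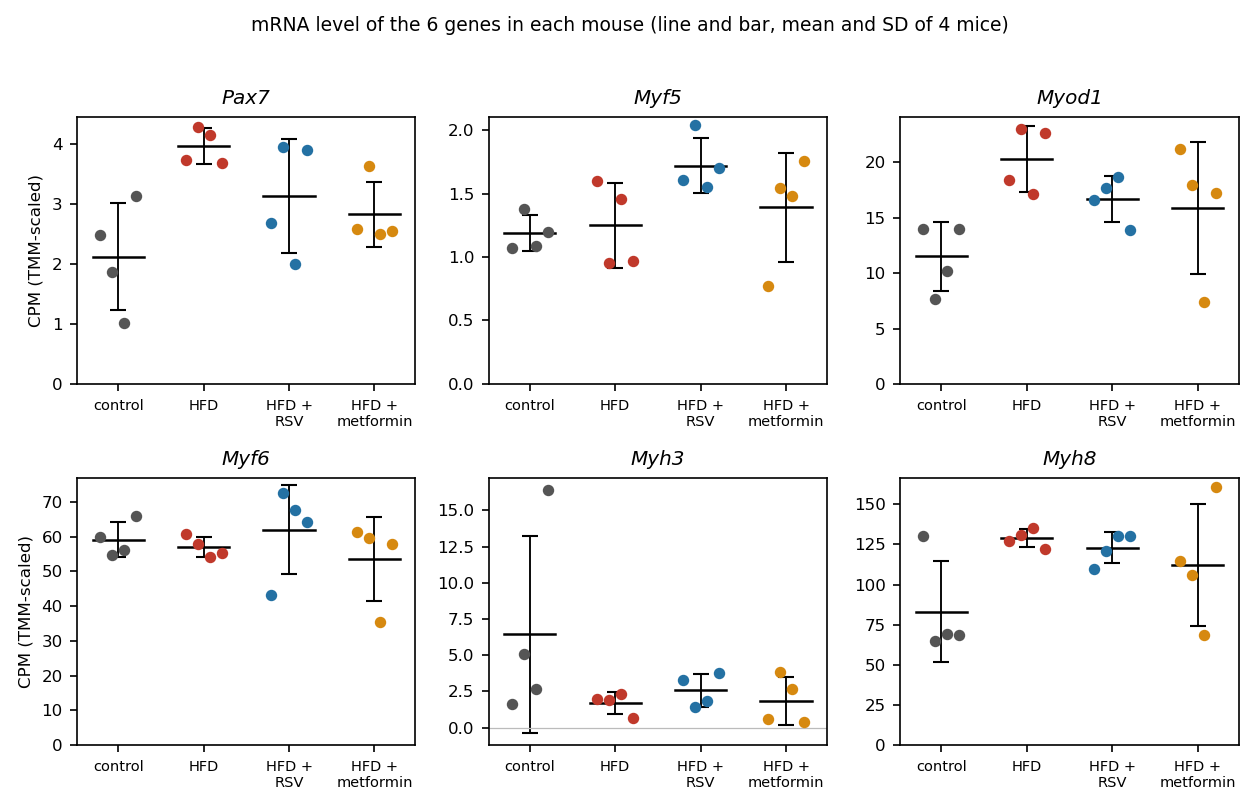
CPM of each gene (y axis, linear, scaled by TMM) in each of the 4 mice of a group (x axis), with the mean as a line and the SD as a bar. The 4 HFD mice lie above all control mice for Pax7 and Myod1, control mouse 4 stands far above the others for Myh3, and control mouse 1 lies with the HFD mice for Myh8.

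HFD was first set against control, which asks how the levels of these genes differed between the groups. In the edgeR fit to all 16 mice, 0 of the 6 genes had a Benjamini-Hochberg adjusted P below 0.05, while 2.43% of the 15364 genes tested did. At an unadjusted P below 0.05, Pax7, Myod1, and Myh8 were higher and Myh3 was lower, that is 4 of 6 genes against 24.2% of all genes. In each direction this was 3 of 6 against 11.7% of all genes higher, and 1 of 6 against 12.5% lower. The median log2FC of the 6 genes was 0.35, against -0.02 over all genes tested. The groups did not overlap for 2 of the 6, Pax7 and Myod1, against 18.3% of all genes, or 8.83% in the higher direction. DESeq2 gave adjusted P-values of 0.0275 for Pax7 and 0.031 for Myod1, so the call for these 2 genes depended on the tool. It called 10.1% of all genes, that is 1544, where the edgeR fit called 374.

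**Figure D2:**
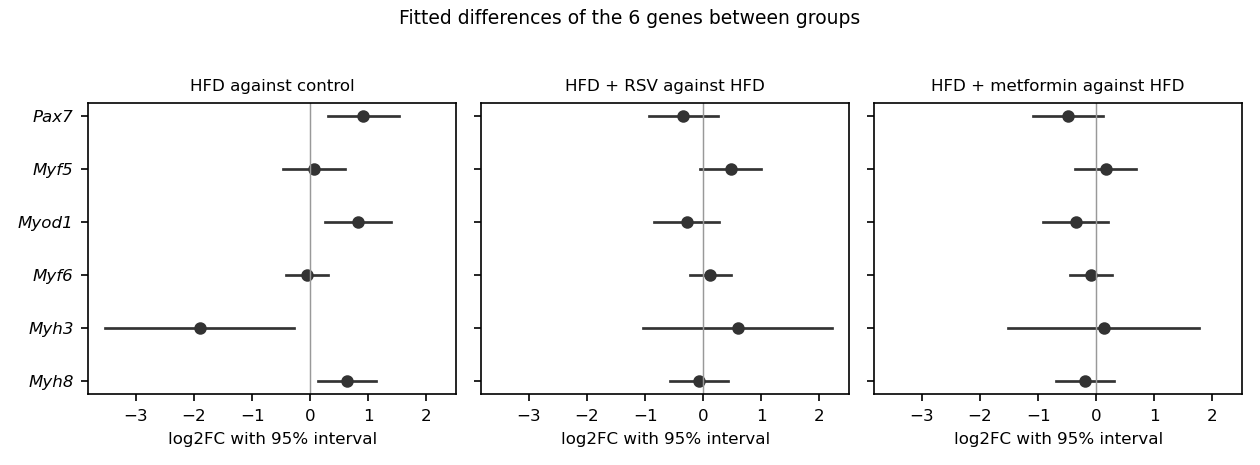
Fitted log2FC (x axis) with its 95% interval for each gene (y axis) for HFD against control and for each drug group against HFD. Without adjustment, the intervals of Pax7, Myod1, Myh8, and Myh3 leave out 0 in the diet comparison, and all intervals of both drug comparisons cross 0.

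Pax7, the paired-box factor that defines satellite cells, lies at chr4:139737062-139833528 on the minus strand (GRCm38), and its main transcript ENSMUST00000030508 has 9 exons and 92.5% of its counts. The control mice had 2.47, 1.87, 1.02, and 3.12 CPM. The HFD mice had 3.72, 4.28, 4.15, and 3.67 CPM. All HFD mice lay above all control mice, and the HFD group was also the tighter one, with an SD of 0.306 CPM against 0.895 CPM. The log2FC was 0.91 (SE 0.287, 95% interval 0.30 to 1.53) in the edgeR fit, with an adjusted P of 0.0842. Without control mouse 3, the lowest mouse, it was 0.68 with an adjusted P of 0.214 in the same edgeR test.

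In the drug groups, Pax7 took intermediate values. The HFD + RSV mice had 2.68, 3.95, 2, and 3.89 CPM, of which mice 2 and 4 lay within the HFD range. The HFD + metformin mice had 2.58, 3.63, 2.49, and 2.55 CPM, all below the lowest HFD mouse at 3.67 CPM. Pax7 was the 1 of 6 genes whose groups did not overlap between HFD + metformin and HFD, against 3.72% of all genes, or 1.89% in the lower direction. Its log2FC was -0.49 (SE 0.282) with metformin and -0.34 (SE 0.281) with RSV, with edgeR adjusted P-values of 0.653 and 1.

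Myf5, a determination factor of the myogenic lineage, lies at chr10:107482908-107486134 on the minus strand, 6718 bases from Myf6, its neighbour at chr10:107492853-107494737. Its control values of 1.07, 1.38, 1.09, and 1.2 CPM were covered by the HFD values of 1.6, 0.956, 1.46, and 0.965 CPM. The log2FC of HFD against control was 0.07 (SE 0.249, 95% interval -0.46 to 0.60, edgeR adjusted P 0.899). A difference was not detectable at this depth and spread, which leave room for a log2FC of up to 0.60. Without HFD mouse 1 the value was -0.08.

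With RSV, Myf5 had its highest group mean, 1.72 ± 0.217 CPM (SD, n = 4). The HFD + RSV mice had 1.61, 2.04, 1.55, and 1.7 CPM, all above the highest control mouse at 1.38 CPM, and mouse 3 was the only one within the HFD range. Against control, Myf5 was the 1 of 6 genes whose groups did not overlap, against 11.3% of all genes, or 5.44% in the higher direction, with a log2FC of 0.54 (SE 0.246) and an edgeR adjusted P of 0.31. Against HFD the log2FC was 0.47 (SE 0.245, edgeR adjusted P 1). The HFD + metformin mice spread from 0.77 to 1.76 CPM, over both the control and the HFD range.

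Myod1, the factor that commits myoblasts and that is also transcribed more in fast than in slow fibres, lies at chr7:46376474-46379099 on the plus strand in 3 exons. The control mice had 14, 7.66, 10.2, and 14 CPM. The HFD mice had 18.4, 23, 17.1, and 22.6 CPM. The groups did not overlap, with 17.1 CPM in the lowest HFD mouse and 14 CPM in the highest control mouse. The log2FC was 0.82 (SE 0.264, 95% interval 0.26 to 1.39), with an edgeR adjusted P of 0.0896. This call changed with the mice in the fit. The edgeR adjusted P was 0.0447 in a fit to these 2 groups alone, 0.0217 in a fit to the 12 mice without the metformin group, 0.0157 without HFD + metformin mouse 3, and 0.229 without control mouse 3. The first 3 of these edgeR fits also called more of all genes, 6.74%, 10.7%, and 10.2%.

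The drug groups lay between control and HFD for Myod1, with wide overlap. The HFD + RSV mice had 16.6, 17.7, 18.7, and 13.9 CPM, and mice 1 and 4 were below all HFD mice. The HFD + metformin mice had 21.2, 17.9, 7.39, and 17.2 CPM, where mouse 3 was the lowest of all 16. The log2FC against HFD was -0.28 (SE 0.261) with RSV and -0.35 (SE 0.261) with metformin. Without HFD + metformin mouse 3 the latter was -0.11. A single lncRNA row, NONMMUT125151.1 at chr7:46371403-46372492, lay within 5 kb of any of the 6 genes, 3981 bases from Myod1, and with 2 to 10 counts per mouse it was too low to test.

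Myf6, also called MRF4, showed the smallest differences of the 4 factors in HFD against control and in either drug group against HFD. The control mice had 59.8, 54.6, 56.2, and 65.9 CPM. The HFD mice had 60.6, 57.8, 54.1, and 55.3 CPM, all but mouse 3 within the control range. The log2FC was -0.05 (SE 0.167), with the narrowest 95% interval of the 6 genes, -0.41 to 0.30. The HFD + RSV mice had 43.3, 72.4, 67.7, and 64.3 CPM. The HFD + metformin mice had 61.2, 59.6, 35.5, and 57.8 CPM. The low values of HFD + RSV mouse 1 and HFD + metformin mouse 3 widened both drug groups, whose log2FC against HFD were 0.12 and -0.09 (SE 0.167 each). Without HFD + metformin mouse 3 the latter was 0.06.

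Genes of fibre type and of other tissues also differed between HFD and control, without a call, beside Pax7, Myod1, and Myh8. Of 9 slow fibre genes, 8 were lower in HFD than in control at an unadjusted P below 0.05 and 0 had an adjusted P below 0.05, with a median log2FC of -3.53. Their summed level was 110 to 2440 CPM in the control mice, where mouse 1 had the 110 CPM, and 115 to 302 CPM in the HFD mice. Of 9 mature fast fibre genes, 4 were higher at an unadjusted P below 0.05, with a median log2FC of 0.46 and a summed level of 65200 to 109000 CPM in control and 105000 to 118000 CPM in HFD. Schwann cell genes, of which 4 of 7 were lower without adjustment, summed to 63.5 to 217 CPM in control and 44.9 to 65.8 CPM in HFD. By the same criterion 3 of 6 endothelial and 2 of 6 adipocyte genes were lower. Over all genes, 11.7% were higher and 12.5% were lower by this criterion. The adipocyte sum was 506 to 2490 CPM in control and 50.5 to 582 CPM in HFD. The part of fibre type, nerve, vessel, and fat content in the values of Pax7, Myod1, and Myh8 was not tested.

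The developmental myosins lie in a cluster on chromosome 11, in the order Myh3, Myh2, Myh1, Myh4, Myh8, and Myh13, all on the plus strand. Myh3 lies at chr11:67078300-67102291 with 41 exons in its main transcript, and Myh8 at chr11:67277124-67308634 with 40 exons, 16677 bases after Myh4, the fast IIb myosin. On the FPKM scale, Myh4 had a mean of 5270 in control and 7680 in HFD, whereas Myh8 had 12.1 and 17.2 and Myh3 had 0.982 and 0.23. The developmental forms were thus a trace of the myosin mRNA in these adult muscles.

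**Figure D3:**
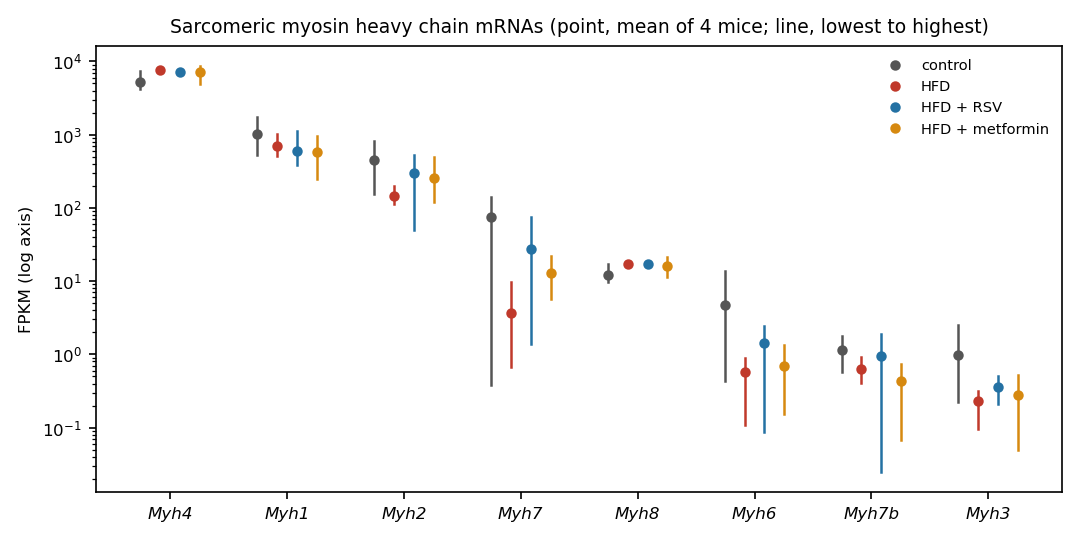
FPKM (y axis, log scale) of 8 sarcomeric myosin heavy chain genes (x axis) in the 4 groups, with the mean of 4 mice as a point and the lowest to the highest mouse as a line. Myh8 and Myh3 lie far below Myh4, Myh1, and Myh2, and the range of Myh8 is narrow in the HFD and HFD + RSV groups.

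Myh8 had 130, 64.8, 68.9, and 68.4 CPM in the control mice. It had 127, 131, 135, and 122 CPM in the HFD mice. Of the control mice, 3 lay below all HFD mice, and mouse 1 lay within their range. The log2FC was 0.63 (SE 0.237, 95% interval 0.13 to 1.14), with an edgeR adjusted P of 0.127. Without control mouse 1 it was 0.94 with an adjusted P of 0.0273 in the same edgeR test, where 4.95% of all genes were called. Control mouse 1 was also the control mouse with the lowest summed slow fibre level and the highest summed fast fibre level.

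The HFD + RSV mice had 110, 121, 130, and 130 CPM of Myh8, and the HFD + metformin mice had 115, 106, 68.4, and 161 CPM. HFD + metformin mouse 3 was at the level of 3 control mice, and mouse 4 was the highest of all. Against HFD, the log2FC was -0.07 (SE 0.235) with RSV and -0.20 (SE 0.235) with metformin, with edgeR adjusted P-values of 1 and 0.82. Against control, it was 0.56 (SE 0.236, edgeR adjusted P 0.275) with RSV and 0.44 (SE 0.236, edgeR adjusted P 0.596) with metformin.

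The level of Myh8 went with that of its neighbour. Of 13364 genes compared over the 16 mice, Myh4 was the most like Myh8, with a Pearson r of 0.982 between log2 CPM values and 0.974 after group means were subtracted. Casq1, the calcium store protein of fast fibres, followed with 0.970, and Gpr180 with 0.969. These points share library and scaling, so the r values are descriptions. Per 100 counts of Myh4, there were 0.238 ± 0.0028 counts of Myh8 in control, 0.233 ± 0.0118 in HFD, 0.248 ± 0.0124 in HFD + RSV, and 0.234 ± 0.0199 in HFD + metformin (SD, n = 4 each). Whereas Myh8 spanned 2.48-fold between mice in CPM, its ratio to Myh4 spanned 1.27-fold.

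**Figure D4:**
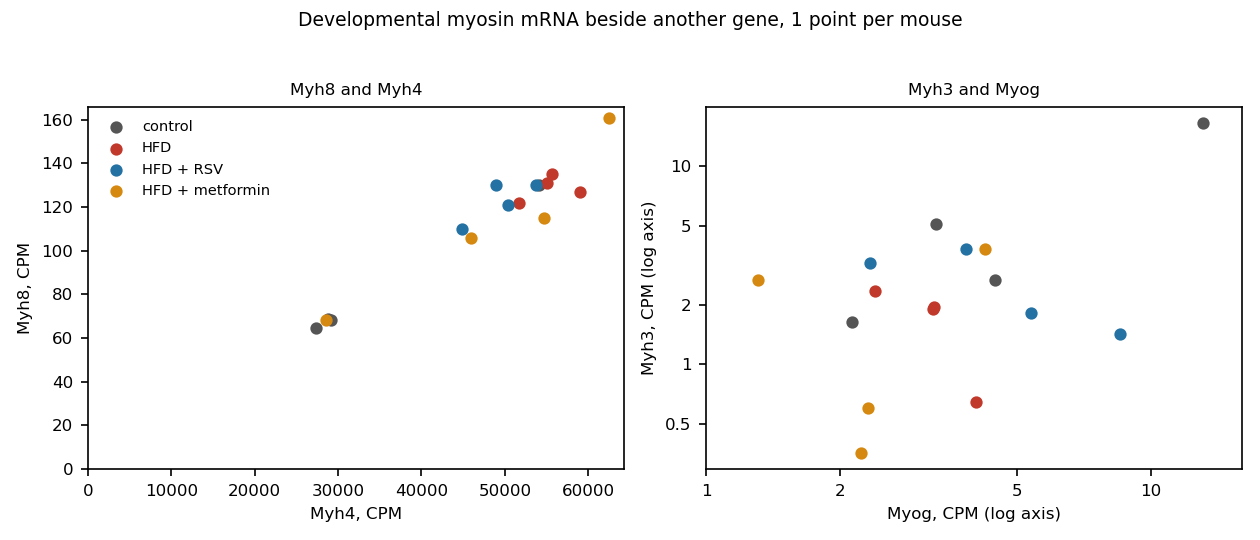
Left, Myh8 (y axis, CPM) against Myh4 (x axis, CPM), and right, Myh3 (y axis, CPM) against Myog (x axis, CPM), the right panel on log axes, with 1 point per mouse colored by group. Myh8 follows Myh4 almost in proportion in all groups, while control mouse 4 stands at the top of both Myh3 and Myog.

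Myh8 and Myh4 are identical over stretches of their coding sequence, and fragments from these stretches cannot be assigned to either gene by sequence alone. The longest run shared by the main Myh8 transcript and Myh4 had 164 bases, in exons 24 and 25 of Myh8 between chr11:67297464 and 67297706, inside the coding sequence. It is shown in capitals, with 15 flanking bases of Myh8 on each side, because it marks where the counts of both genes cannot be separated by sequence.

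Myh8: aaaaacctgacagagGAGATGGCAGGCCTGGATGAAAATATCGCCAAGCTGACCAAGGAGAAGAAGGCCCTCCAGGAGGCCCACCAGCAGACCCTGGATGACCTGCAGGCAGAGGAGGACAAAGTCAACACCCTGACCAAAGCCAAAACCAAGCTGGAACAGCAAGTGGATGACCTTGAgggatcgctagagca

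Of the words of 50 bases in the main Myh8 transcript, 9.31% occurred in a Myh4 transcript and 21.4% in another sarcomeric myosin, of the words of 100 bases 1.44% and 6.61% did, and of the words of 150 bases 0.25% and 1.6% did. For Myh3, 0.919% of the words of 50 bases occurred in Myh4 and 4.81% in another sarcomeric myosin. The part of fragments from Myh4 in the Myh8 counts was not tested, so the level of Myh8 is uncertain.

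The promoters of this gene pair are shown because the counts assigned to both genes varied together over the mice, beside that of Myh3, which did not follow them. RefSeq starts (GRCm38.p6) were listed for 4 of the 6 genes, not for Myod1 and Myf6. The sequences are the 250 bases before the start on the plus strand, of Myh8 at chr11:67276874-67277123, of Myh4 at chr11:67237562-67237811, and of Myh3 at chr11:67078050-67078299. Capitals mark matches on either strand to the E-box CANNTG, to TATAAA, to the MEF2 motif, and to the CArG motif, where matches to TATAAA and MEF2 can overlap.

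Myh8: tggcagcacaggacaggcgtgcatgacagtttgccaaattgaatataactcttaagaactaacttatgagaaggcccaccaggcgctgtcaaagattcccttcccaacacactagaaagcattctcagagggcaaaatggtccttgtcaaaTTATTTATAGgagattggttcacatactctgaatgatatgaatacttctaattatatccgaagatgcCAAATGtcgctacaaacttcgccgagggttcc

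Myh4: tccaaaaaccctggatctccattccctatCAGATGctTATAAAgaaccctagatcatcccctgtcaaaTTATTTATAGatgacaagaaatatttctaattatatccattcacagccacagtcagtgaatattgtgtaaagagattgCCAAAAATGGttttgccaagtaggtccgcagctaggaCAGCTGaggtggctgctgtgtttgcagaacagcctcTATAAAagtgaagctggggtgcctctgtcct

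Myh3: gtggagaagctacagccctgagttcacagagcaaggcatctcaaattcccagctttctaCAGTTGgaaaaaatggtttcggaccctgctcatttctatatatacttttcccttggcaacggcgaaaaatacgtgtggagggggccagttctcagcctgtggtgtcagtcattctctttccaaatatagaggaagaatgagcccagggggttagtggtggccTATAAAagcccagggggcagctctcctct

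Myh8 and Myh4 both held the run TGTCAAATTATTTATAG of 17 bases, the longest they share in this window, which begins 106 bases before the start of Myh8 and 189 bases before that of Myh4. It holds the only MEF2 match of each promoter and, within it, a match to TATAAA on the other strand. Myh3 had no MEF2 match in this window, and it had an E-box CAGTTG and a TATAAA that begins 29 bases before the start. Myh4 also had a TATAAA that begins 31 bases before the start, with E-boxes CAGATG and CAGCTG and a CArG match. Myh8 had an E-box CAAATG and no CArG match, and its only match to TATAAA is the one in the shared run. Of 32544 promoters of the same length, 66.2% held an E-box, 12.3% TATAAA, 1.69% the MEF2 motif, and 1.48% the CArG motif. Whether these matches bear on the levels of these genes was not tested, and the level of Myh8 is itself uncertain.

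Myh3, the embryonic myosin, was the most variable of the 6 genes. The control mice had 1.63, 5.08, 2.66, and 16.4 CPM, and the HFD mice had 1.95, 1.91, 2.34, and 0.643 CPM. Control mouse 1 lay within the HFD range, and control mouse 4 was far above every other mouse, with 316 counts. Of all Myh3 counts, 93.4% came from ENSMUST00000108689, and ENSMUST00000007301 had 18 counts in control mouse 4, 58 in HFD + metformin mouse 2, and 0 in the other mice. The log2FC was -1.90 (SE 0.761, 95% interval -3.53 to -0.28), with an edgeR adjusted P of 0.148. Without control mouse 4 it was -0.88 with an adjusted P of 0.469 in the same edgeR test. With an unadjusted P below 0.05 and an absolute log2FC above 1 as the rule, Myh3 was the 1 of 6 genes called in HFD against control, where 4.94% of all genes were.

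The HFD + RSV mice had 3.26, 1.43, 1.82, and 3.8 CPM of Myh3, and the HFD + metformin mice had 0.605, 3.82, 2.66, and 0.359 CPM. Both groups overlapped the HFD group, with a log2FC of 0.59 (SE 0.761, 95% interval -1.04 to 2.22) for RSV and 0.13 (SE 0.767, 95% interval -1.51 to 1.77) for metformin. Both intervals hold a log2FC of 1 in either direction. The direction with metformin rested on single mice, since the log2FC was -0.50 without HFD + metformin mouse 2 and also below 0 without HFD mouse 4 or HFD + metformin mouse 3. With only the main transcript of each gene it was -0.35. Against control, the log2FC was -1.32 (SE 0.741) with RSV and -1.77 (SE 0.754) with metformin, with edgeR adjusted P-values of 0.396 and 0.473. Without control mouse 4 they were -0.29 and -0.75.

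Control mouse 4 was also the highest mouse for some other genes of muscle formation and cell division. These genes are members of the lists used here, but they were singled out after their values were seen. Myog, the factor that starts differentiation, had 13.1 CPM there, against 2.13, 3.28, and 4.46 CPM in the other control mice. Outside the control group it was at most 8.5 CPM, in HFD + RSV mouse 2. Mymk and Mymx, the fusion proteins of myoblasts, had 29 and 11 counts there, against at most 6 and 3 counts in any other mouse. Chrng, the fetal subunit of the acetylcholine receptor, had 23 counts there and at most 6 elsewhere. Actc1, of the same list, did not peak there, with 101 CPM against 135 CPM in control mouse 1 and 186 CPM in HFD + RSV mouse 2. The proliferation genes Mki67 and Top2a had 7.44 and 4.99 CPM there, against at most 4.13 and 2.84 CPM in any other mouse. In the same mouse Pax7 was the highest of the control group at 3.12 CPM, whereas Myf5, Myod1, and Myf6 at 1.2, 14, and 65.9 CPM were within the range of the other 15 mice, as was Pax7. Myh8 at 68.4 CPM was at the level of control mice 2 and 3 there. The 4 muscle spindle genes, which mark another site of both developmental myosins, summed to 25.4 CPM in this mouse and to 7.64 to 41 CPM in the control group, against 2.57 to 12.2 CPM in HFD, and 1 of 3 tested was lower in HFD without adjustment. The part of spindles in the Myh3 values was not tested. The title of control mouse 4 carries another leading number than the other control titles, and its meaning is not given.

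The genes most like Myh3 over the 16 mice were Tnnt2, the troponin T of the heart and of fetal muscle, with an r of 0.903, Abraxas1 with 0.880, and Col8a1 with 0.866. Like Myh3, Tnnt2, Abraxas1, and Col8a1 had their highest values in control mouse 4, at 3.07, 7.85, and 30.2 CPM. The most like genes of Pax7 were Epha7 with 0.889, Rnf128 with 0.879, and Fsd1l with 0.879. For Myod1 they were Relt with 0.903, Ppm1j with 0.902, and Cand2 with 0.895, for Myf5 Lrif1 with 0.880, Ttc4 with 0.862, and Naf1 with 0.812, and for Myf6 Gm10284 with 0.861, Tle6 with 0.835, and Gtf3a with 0.823. None of the 6 genes was among the 3 most like genes of another. Within the 6, Myod1 and Myh8 were the most alike pair with an r of 0.77. Pax7 and Myod1 had 0.56, Pax7 and Myf5 had 0.18, and Myh3 and Myh8 had -0.64. After group means were subtracted, these pairs had 0.63, 0.22, 0.17, and -0.59. The most alike pair was then Myod1 and Myf6, with 0.69.

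As a share of all counts of the 10 sarcomeric myosin heavy chain genes, Myh3 and Myh8 together made up 0.2% ± 0.0227 in control, 0.213% ± 0.00839 in HFD, 0.224% ± 0.015 in HFD + RSV, and 0.212% ± 0.0208 in HFD + metformin (SD, n = 4 each). This share does not depend on the scaling between libraries. The exact two-sided permutation test of 4 mice against 4 gave P = 0.371 for HFD against control, where the smallest possible P is 0.0286. It gave P = 0.257 for HFD + RSV against HFD and P = 0.971 for HFD + metformin against HFD in the same exact test. For HFD + RSV against control the exact test gave P = 0.143. No difference of the share was thus detected with 4 mice in each group. The mean shares of the parts differed in opposite directions between control and HFD, which was not tested. Myh3 had mean shares of 0.0151% and 0.00274%. Its share was 0.0372% in control mouse 4 and 0.00274% to 0.0124% in the other control mice. Myh8 had mean shares of 0.184% and 0.21%, and its ranges of 0.155% to 0.219% and 0.2% to 0.217% overlapped. Myh4 had mean shares of 77.5% and 90.2%. Of the Myh8 counts, 99.8% came from a single transcript, ENSMUST00000019625, whose separation from Myh4 is uncertain.

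The genes around the myogenic factors were mostly without a call in HFD against control. Of 19 satellite cell markers and niche receptors, 0 had an adjusted P below 0.05, 1 was higher and 0 were lower at an unadjusted P below 0.05, and the median log2FC was 0.01 against -0.02 over all genes. Cdh15, the M-cadherin that holds satellite cells to the fibre, had 18.6 ± 3.49 CPM in control and 22 ± 2.28 CPM in HFD (SD, n = 4 each), and Calcr, a receptor of quiet satellite cells, had 0.626 ± 0.116 and 0.704 ± 0.378 CPM. Both were picked for their role after their values were seen. Of the 19 genes, 10 had a log2FC above 0. Pax3 was the 1 higher without adjustment, with a log2FC of 1.28, whereas Sdc4, Vcam1, and Sdc3 had -0.55, -0.39, and -0.26. Of 15 differentiation and fusion genes tested among 18 listed, 0 were called, 0 were higher and 1 was lower without adjustment, with a median log2FC of -0.28. Of 9 cell division genes tested among 12 listed, 0 were called, and the median log2FC was -0.62. Without adjustment, 2 were higher and 3 were lower, where 11.7% and 12.5% of all genes were. The 12 listed genes summed to 32, 34, 31.3, and 52.2 CPM in the control mice and to 35.8 to 39.8 CPM in HFD. In this sum, control mouse 4 lay above all HFD mice and the other control mice lay below them.

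A call was made for 1 gene in each of 2 lists, where 2.43% of all genes tested were called. Jag2, a Notch ligand, was the 1 of 13 Notch pathway genes called. Its level was 22.5 to 34.9 CPM in control and 43.6 to 50.5 CPM in HFD, and it was upregulated with a log2FC of 0.70 (SE 0.136, edgeR adjusted P 0.0262). Mef2c, a partner of the myogenic factors in fibres, was the 1 of 14 partners and inhibitors called. It was 82 to 181 CPM in control and 340 to 541 CPM in HFD, and it was upregulated with a log2FC of 1.66 (SE 0.269, edgeR adjusted P 0.0149). In both genes the groups did not overlap. Without adjustment, 1 Notch pathway gene and 2 partners or inhibitors were lower, and the list medians were -0.00 and -0.16.

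**Figure D5:**
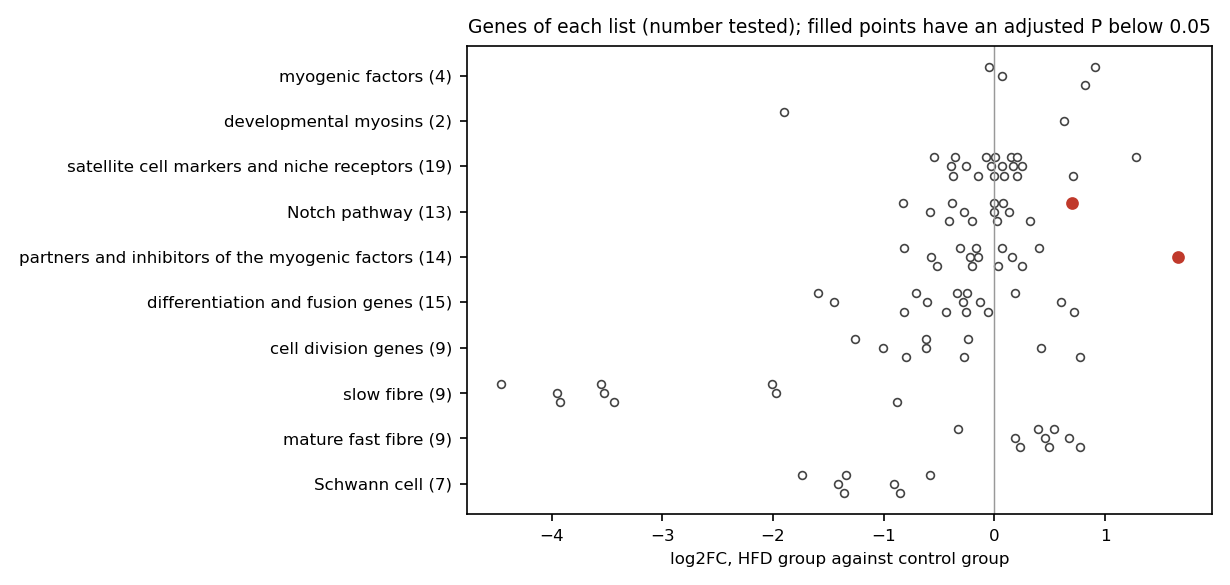
Log2FC of HFD against control (x axis) for every tested gene of 10 lists (y axis, with the number tested), where filled points have an adjusted P below 0.05. Jag2 and Mef2c are the only filled points, and the slow fibre genes lie to the left of 0.

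Comparing each drug group with the HFD group asks how the groups differed on the high-fat diet. With RSV, 0 of the 6 genes were called and 0% of all genes were, in the edgeR fit, and at an unadjusted P below 0.05 there were 0 of 6 against 4.72%, that is 725 genes. DESeq2 called 8 genes in this comparison, none of them among the 6. The groups overlapped for all 6, where they did not for 4.2% of all genes, and the median log2FC was 0.02 against 0.00. With metformin, 0 of 6 were called against 0.013% of all genes, 0 of 6 at an unadjusted P below 0.05 against 8.02%, and the median was -0.14 against 0.02. The comparisons of the drug groups with HFD and of HFD with control share the HFD mice, so opposite signs in Pax7 and Myod1 are not independent.

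Genes of other tissues differed in the drug comparisons as well, without a call. With RSV, 5 of 9 slow fibre genes and 6 of 7 Schwann cell genes were higher at an unadjusted P below 0.05, and the Schwann cell sum was 417 CPM in HFD + RSV mouse 2 against 44.9 to 65.8 CPM in HFD. Blood genes were higher by the same criterion in both drug groups, 4 of 5 with RSV and 5 of 5 with metformin, with sums of 507 to 1340 CPM and 500 to 1390 CPM against 362 to 477 CPM in HFD. Of 6 endothelial genes, 1 was higher with RSV and 3 with metformin. Over all genes, 4.72% with RSV and 8.02% with metformin met this criterion in either direction. In no list was a gene called in either comparison, and the part of these tissues in the levels of the 6 genes was not tested.

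The drug groups were also compared with the control group and with each other. In HFD + RSV against control, 0 of 6 were called against 0.00651% of all genes, and Myf5 and Myh8 were higher at an unadjusted P below 0.05, that is 2 of 6 against 15.8%, or 7.8% in the higher direction. In HFD + metformin against control, 0 of 6 were called against 0% of all genes in the edgeR fit, where DESeq2 called 146 genes, and Myh3 was lower at an unadjusted P below 0.05, that is 1 of 6 against 9.5%, or 4.15% in the lower direction. With an absolute log2FC above 1 in addition it was 1 of 6 against 1.63%. Between the drugs, the fitted value of all 6 genes was higher in HFD + RSV, with a median log2FC of 0.18 against -0.00 over all genes, but without HFD + metformin mouse 3 Myod1 was at -0.17 and Myh8 at -0.05. In this comparison 0 of 6 were called against 0% of all genes, where DESeq2 called 10 genes, and 0 of 6 reached an unadjusted P below 0.05, against 4.68% of all genes. The edgeR adjusted P-values of the 6 were 0.962 to 0.978. DESeq2 called 0 of the 6 in each of the 5 comparisons other than HFD against control.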

How the data were processed

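Paired-end, ribosomal RNA-depleted libraries of skeletal muscle, 1 per mouse, were sequenced on a NovaSeq. The submitters' processing notes name fastp, HISAT2, and GRCm38. The authors deposited expected counts per transcript from StringTie, which were whole numbers without normalization, and FPKM values, which were counts divided by transcript length and library size. All 11 transcripts of the 6 genes have the coordinates of GENCODE M21. A random-primed kit without a stated strand setting was used, so whether antisense reads were separated is not known.

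Counts were summed per gene name (4 transcripts split over 2 lines were joined), filtered by filterByExpr (minimum count 10, minimum total 15), scaled by TMM, and fitted for all 16 mice with the robust quasi-likelihood test of edgeR 4.0.16 in R 4.3.3. P-values were adjusted over 15364 genes by the Benjamini-Hochberg method, and a gene was called at an adjusted P below 0.05. Single shares were compared with exact two-sided permutation tests. The common coefficient of variation was 0.261, and in simulated HFD and control counts 59.5% of 200 genes changed by a log2FC of 1 were recovered among 15231 genes. Precision was set by 4 mice per group and, for Pax7, Myf5, and Myh3, by low counts.

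The 6 genes and the gene lists were chosen with earlier results of these data known. Named genes are the 6, the called genes of each list with the largest changes (up to 3 a direction), and for each of the 6 the 3 genes with the highest Pearson r of log2 CPM (prior count 2) among genes of at least 1 CPM. Alternatives were DESeq2 1.42.0, no scaling factor, no filter, fewer mice, the main transcript, and an unadjusted P below 0.05 with an absolute log2FC above 1. Leaving out 2 libraries was chosen after seeing the data.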

Additional observations from a re-analysis of the deposited data

Results flagged for a closer look

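Within groups of 4 mice, a mouse was singled out when its gap to the nearest other mouse passed Dixon's 95% critical value for its share of the range of the group. In 28 groups tested, 3 mice met this, and chance gives about 1 in 20 groups. Myh8 was 130 CPM in control mouse 1, where the nearest control mouse had 68.9 CPM. Pax7 was 3.63 CPM in HFD + metformin mouse 2, and the nearest mouse had 2.58 CPM. Myf6 was 35.5 CPM in HFD + metformin mouse 3, and the nearest mouse had 57.8 CPM.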

How the results depend on the processing

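No difference of the 6 genes with a call under any alternative changed sign. In HFD against control, the number of the 6 called was 0, and it was 2 with DESeq2 (Pax7 and Myod1), 1 in a fit to the 2 groups alone, 1 in a fit to the 12 mice without the metformin group, and 1 without control mouse 3 and HFD + metformin mouse 3 (Myod1 each). It was 1 with an unadjusted P below 0.05 and an absolute log2FC above 1 (Myh3), and it ranged from 0 to 1 without single mice (Myh8 without control mouse 1, Myod1 without HFD + metformin mouse 3). In HFD + metformin against control it was 1 with the same rule (Myh3). The cause was not tested.

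The number of all genes called in HFD against control was 374. It was 1544 with DESeq2, 186 without scaling factors, 158 without the filter, 998 in the 2 groups alone, 1616 in the 12 mice, 32 with the main transcript, and 759 with the rule of an unadjusted P and a log2FC, and it ranged from 16 to 1588 without single mice. In HFD + RSV against HFD it was 0, with 8, 1, and 166 genes under DESeq2, the main transcript, and the unadjusted rule, and 0 to 1 without single mice. In HFD + metformin against HFD it was 2, with 31, 1, and 271 genes under the same alternatives, 1 without scaling factors, 1 in the 2 groups alone, 0 without both low-share libraries, and 0 to 2 without single mice. In HFD + RSV against control it was 1, with 376 under DESeq2, 0 without scaling factors, 231 in the 12 mice, 53 without both low-share libraries, 418 with the unadjusted rule, and 0 to 261 without single mice. In HFD + metformin against control it was 0, with 146 under DESeq2, 38 without both low-share libraries, 250 with the unadjusted rule, and 0 to 180 without single mice. In HFD + RSV against HFD + metformin it was 0, with 10, 1, and 149 genes under DESeq2, the main transcript, and the unadjusted rule.

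No paired analysis was possible because no pair of groups shares more than 1 leading number or more than 1 whole number in the mouse titles, and the leading number of the HFD mice is found in no other group. The second number in the titles was not used as a block. Depth limits Pax7, Myf5, and Myh3, which had as few as 26, 14, and 10 counts in a mouse.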
